A study of Mus musculus with 4 samples.

Results

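Cycling tumour-associated macrophages were the 5961 cells that the deposited annotation named TAM_cycling, of 34447 cells and 17 annotated classes in all. Membership was read from that annotation alone. The class came from clusters that the authors had made on expression, so its cell cycle genes are a description of how it was built. The cells were CD45+ cells sorted from tumours of YUMM1.7-OVA RTT, a mouse melanoma line that carries the model antigen ovalbumin and is resistant to targeted therapy. The tumours grew in Rag2-/- mice, which have no T or B cells of their own, and on day 7 every animal was given OT-1 CD8+ T cells, which recognise ovalbumin, by adoptive transfer (ACT). Tumours were taken on day 10, 72 h after ACT, and the tissue of 3 tumours was pooled for each library.

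There were 4 libraries, 1 per group. In CTRL the cancer cells carried an empty vector with mCherry and mice received no drug named in the labels. COX2i tumours were of the mCherry line, and the mice received the COX2 inhibitor celecoxib. COX2i + 5-AZA tumours were of the same line, and the mice received celecoxib with 5-azacytidine, a DNA methyltransferase inhibitor. In IRF3/7 the cancer cells, sorted in bulk and not as 1 clone, expressed Irf3 and Irf7 from vectors driven by the SFFV promoter, so the transgenes sat in the tumour and not in the macrophages. With 1 library per group there was no replicate, no test between groups was possible, and each difference below is one between pools. All intervals are exact 95% intervals and cover counting error only.

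No complete cell barcode occurred in more than 1 library. The libraries were run together and told apart by 4 probe barcodes, and 10018 cells (29.1%) shared their droplet barcode with a cell of another library. Of the cycling macrophages, 1707 (28.6%) did. The class held 15752750 unique molecular identifiers (UMIs) in CTRL, 35308302 in COX2i, 18061978 in COX2i + 5-AZA and 152720 in IRF3/7. Median UMIs per cycling macrophage were 10038 in CTRL, 10389 in COX2i, 13011 in COX2i + 5-AZA and 7693 in IRF3/7. In TAM_C1q, the annotated class led by complement C1q genes, the medians of the first 3 libraries were 6857, 7368 and 9345, so a cycling cell held more RNA or was captured more deeply, which cannot be told apart.

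A dividing cell copies its DNA in S phase and separates the copies in mitosis, and each step has its own set of genes. E2F factors raise the genes of DNA replication before and during S phase, and the DREAM, MYB-MuvB and FOXM1 complexes hold back or raise the mitotic genes through promoter elements that include the CCAAT box and the CHR. Macrophages of tissues and tumours come from monocytes or from local precursors, and they can divide in place, for which the receptor of colony-stimulating factor 1, Csf1r, is a main growth signal.

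The class took a very different share of the CD45+ cells in the 4 pools. It made up 16.3% (15.5 to 17.1) of CTRL cells, 1457 of 8953. In COX2i it made up 34.6% (33.7 to 35.6), 3164 of 9133. The share was 13.2% (12.5 to 13.8) in COX2i + 5-AZA, 1320 of 10032. In IRF3/7 only 20 of 6329 cells carried the name, 0.316% (0.193 to 0.488). The COX2i pool thus supplied 53.1% of all members, and for the 20 cells of IRF3/7 levels are given with no ratio to the other pools.

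The COX2i share was 2.13 times that of CTRL (2.00 to 2.27). The COX2i + 5-AZA share was 0.809 times that of CTRL (0.750 to 0.872), but this direction depended on the denominator. Among macrophages alone, cycling cells were 19.5% in CTRL, 46.4% in COX2i, 32.1% in COX2i + 5-AZA and 4.56% in IRF3/7, and COX2i + 5-AZA then stood at 1.64 times CTRL (1.53 to 1.77). Over monocytes and macrophages together the shares were 19.1%, 42.9%, 14.998% and 0.397%. COX2i stayed above CTRL and IRF3/7 below it with every denominator.

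**Figure D1:**
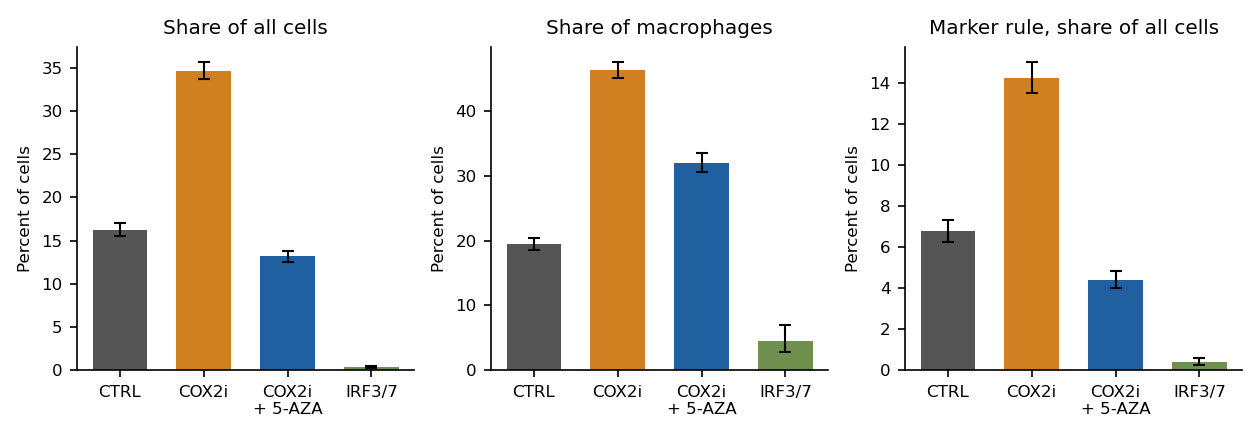
Bars give the share of cycling macrophages in each library as a percentage of all CD45+ cells, the share as a percentage of macrophages, and the percentage of all cells that are monocytes or macrophages with at least 3 of 5 proliferation markers after thinning; lines are exact 95% intervals for counting error. COX2i is highest in each panel (34.6%, 46.4% and 14.2%), and COX2i + 5-AZA lies below CTRL in the first and last panels but above it among macrophages.

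The label was checked against Mki67, Top2a, Cdk1, Nusap1 and Plk1 after each cell was thinned to 2000 UMIs, which left out 36 shallower members. Mki67, the Ki-67 antigen of cycling nuclei (ENSMUSG00000031004, chr7:135689784-135716361, minus strand, GRCm38), had a UMI in 55.3% of cycling macrophages. It was seen in 7.94% of TAM_C1q and in 4.86% of TAM_Spp1, a class named after osteopontin. Neutrophils, which do not divide, gave 4.49%. At least 3 of the 5 markers were seen in 37.6% of the class (36.3 to 38.8), in 0.155% of TAM_C1q, in 0.0900% of TAM_Spp1 and in 1.22% of neutrophils. Cycling cells also occurred outside the macrophages, with 12.3% of NK cells and 20.5% of cDC1 holding 3 markers. Among members, 23.6% showed none of the 5 markers at this depth.

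Cells with 3 markers were also counted among all annotated monocytes and macrophages, whatever their class. There were 2275 of them, and 97.8% were members. Cells with 3 markers in other annotated classes, such as 179 of Myofibrobl, 107 of cDC2 and 91 of NK cells, were left out by their names. They were 6.76% of all cells in CTRL (6.24 to 7.31), 14.2% in COX2i (13.5 to 14.98), 4.39% in COX2i + 5-AZA (3.98 to 4.82) and 0.390% in IRF3/7 (0.239 to 0.602). The order of the pools was that of the class shares. In IRF3/7 only 5 of the 20 marker-positive cells carried the class name, so there the name missed most of the few cycling cells.

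The levels of the marker genes in the members differed much less than the number of members. The members were named from clusters made on expression, so near levels of such genes can follow from that selection and are a description. Levels are given as CPM, the UMIs of a gene scaled to the summed UMIs of the members of a library. Mki67 stood at 573 CPM in CTRL, 638 CPM in COX2i and 466 CPM in COX2i + 5-AZA. Top2a, the topoisomerase that untangles sister chromatids (ENSMUSG00000020914, chr11:98992943-99024189, minus strand), stood at 635, 726 and 597 CPM. Cdk1, the kinase that starts mitosis (chr10:69335146-69352938, minus strand), stood at 335, 334 and 282 CPM. Nusap1, a spindle protein (chr2:119618298-119651244, plus strand), stood at 164, 166 and 109 CPM. For Plk1, a mitotic kinase (chr7:122159439-122169873, plus strand), the levels were 151, 159 and 146 CPM. COX2i + 5-AZA was lowest for each of the 5 genes, but for Plk1 the interval against CTRL included no difference (-0.13 to 0.03), and among members nearest to TAM_C1q, a match by other genes given below, Plk1 was 0.14 above CTRL and 0.05 above COX2i on the log2 scale.

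Apart from IRF3/7, COX2i + 5-AZA was also lowest for whole phases. The 44 genes of an S phase list took 0.605% of the members' UMIs in CTRL, 0.604% in COX2i and 0.555% in COX2i + 5-AZA. The 53 genes of a G2/M phase list took 0.817%, 0.865% and 0.740%. In TAM_C1q the S phase list took 0.101%, 0.126% and 0.0895%, and in TAM_Spp1 0.0887%, 0.101% and 0.0819%, so COX2i was the highest pool in both of these classes. The 20 members of IRF3/7 gave 0.801% for S phase (0.757 to 0.847) and 0.601% for G2/M (0.563 to 0.641).

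**Figure D2:**
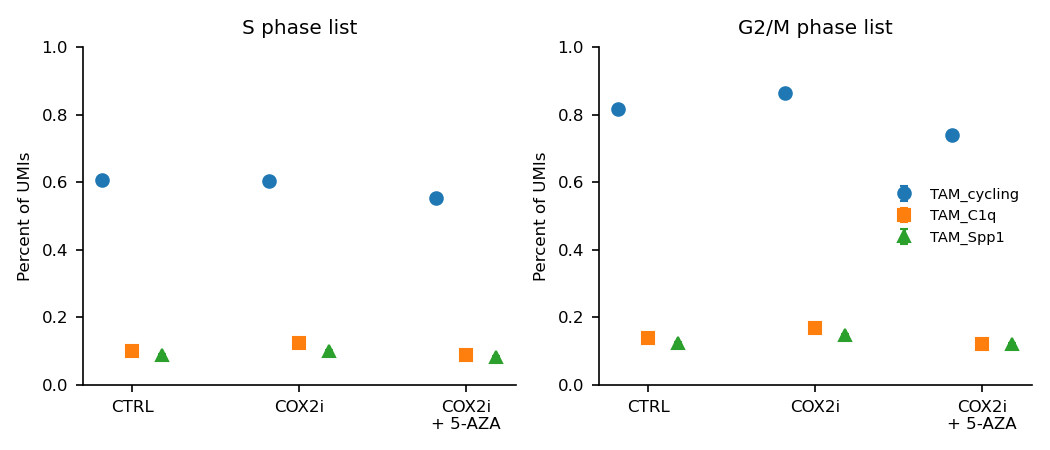
Points give the percentage of a class's UMIs that fell on the S phase list (44 genes) and on the G2/M phase list (53 genes) in 3 classes and 3 libraries, with exact 95% intervals for counting error that are mostly smaller than the symbols. The cycling class lies between 0.555% and 0.865% in every library, and TAM_C1q and TAM_Spp1 stay below 0.168%.

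Promoter sequences are shown for 5 genes that stand for the replication, mitotic and interferon groups described here, as the 250 bases upstream of the RefSeq start on GRCm38.p6. Capitals mark matches on either strand to the CHR (TTTGAA) and the CCAAT box (CCAAT) in Mki67 and Top2a, to E2F elements (TTTCGCGC, TTTGGCGC, TTTCCCGC or TTTGCCGC) in Mcm5, a subunit of the replicative helicase, and to the interferon-stimulated response element, ISRE (GAAA, any 2 bases, then GAAA again), in Cxcl10 and Ifit3. The E2F matches in Mcm5 overlap each other. Of windows that are not printed, that of Cxcl9 held no match to the ISRE and that of Nusap1 none to the CHR, the CCAAT box or the E2F elements. The windows are Mki67 chr7:135716380-135716629 (minus strand), Top2a chr11:99024190-99024439 (minus strand), Mcm5 chr8:75109259-75109508 (plus strand), Cxcl10 chr5:92348890-92349139 (minus strand) and Ifit3 chr19:34583279-34583528 (plus strand).
Mki67: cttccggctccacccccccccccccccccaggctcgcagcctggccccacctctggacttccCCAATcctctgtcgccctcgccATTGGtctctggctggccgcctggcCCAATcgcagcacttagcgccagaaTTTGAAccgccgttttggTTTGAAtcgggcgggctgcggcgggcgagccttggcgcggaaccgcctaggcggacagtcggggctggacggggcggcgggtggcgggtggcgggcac
Top2a: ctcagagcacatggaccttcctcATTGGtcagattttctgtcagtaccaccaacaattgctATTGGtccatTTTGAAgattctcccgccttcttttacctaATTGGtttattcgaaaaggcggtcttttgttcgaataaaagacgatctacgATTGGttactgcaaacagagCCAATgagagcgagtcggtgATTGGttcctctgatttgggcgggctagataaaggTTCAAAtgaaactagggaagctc
Mcm5: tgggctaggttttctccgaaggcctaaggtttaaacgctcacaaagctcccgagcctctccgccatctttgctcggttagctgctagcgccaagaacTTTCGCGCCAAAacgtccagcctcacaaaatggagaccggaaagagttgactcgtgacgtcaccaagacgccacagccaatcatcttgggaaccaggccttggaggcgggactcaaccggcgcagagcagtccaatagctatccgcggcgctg
Cxcl10: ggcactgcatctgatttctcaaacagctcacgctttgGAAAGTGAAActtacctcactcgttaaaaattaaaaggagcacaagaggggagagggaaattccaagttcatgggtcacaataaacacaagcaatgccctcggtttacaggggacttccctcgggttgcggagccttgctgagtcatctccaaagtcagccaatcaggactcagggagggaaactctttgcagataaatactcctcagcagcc
Ifit3: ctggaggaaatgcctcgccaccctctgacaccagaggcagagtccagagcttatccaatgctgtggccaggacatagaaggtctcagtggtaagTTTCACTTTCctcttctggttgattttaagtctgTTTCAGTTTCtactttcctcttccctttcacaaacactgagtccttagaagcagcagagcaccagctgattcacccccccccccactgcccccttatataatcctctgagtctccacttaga

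The CHR letters occurred in 19 of the 46 G2/M genes with a window (41.3%), against 12.9% of the 9982 genes of the count table with one and 18.3% of all 27025 genes with one. The CCAAT box occurred in 35 of those 46 genes (76.1%), against 40.4% of the genes of the table and 37.5% of all genes. Both stood together in 16 G2/M genes, 34.8% against 4.86% of the table. An E2F element was found in 10 of 32 S phase genes (31.2%) and in 3 of 46 G2/M genes, against 3.81% of the table. The ISRE letters occurred in 10 of 15 genes of a list skewed to interferon-γ (66.7%) and in 7 of 14 genes of a list skewed to type I interferon, against 3.40% of the table. A match is only a string of letters and does not show that a factor was bound.

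Members were placed along the cycle by their S phase and G2/M phase shares, each divided by its mean over the members, and a cell whose S phase value was the larger was called S-leaning. S-leaning cells made up 58.3% of members in CTRL (55.7 to 60.8), 55.2% in COX2i (53.5 to 57.0) and 55.8% in COX2i + 5-AZA (53.03 to 58.5). After thinning, the shares were 56.9%, 54.0% and 56.3%. Between 5.77% and 9.24% of cells lay near the dividing line, so these are ranges of a score and not kinds of cells. Median UMIs were lower in S-leaning than in other members of each pool, at 9877 against 10461 in CTRL.

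Genes that were on neither list followed the split. E2f1, which activates the replication genes, stood at 127, 122 and 112 CPM in S-leaning members of CTRL, COX2i and COX2i + 5-AZA and at 36.6, 34.2 and 28.7 CPM in the others. Ccne1, the cyclin E that drives entry into S phase, was higher in S-leaning members by 1.44, 1.79 and 2.19 on the log2 scale. Zmynd19 was higher by 2.17, 1.79 and 1.73 and Msh6, a mismatch repair protein, by 1.59, 1.49 and 1.81. Plk1 stood at 35.4, 39.4 and 34.1 CPM in S-leaning members against 305, 295 and 285 CPM in the others. Aspm, a protein of the spindle poles, differed by -3.48, -3.10 and -3.16. Apoe, the lipid carrier of macrophages, differed by 0.11, 0.01 and 0.14. The MHC class II gene H2-Ab1 differed by -0.06, 0.10 and 0.41, and the chemokine gene Cxcl9 by 0.03, 1.65 and 0.49.

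Compared with the other macrophages of the same pool, members were set apart by cycle genes. Against TAM_C1q, 781 of 11322 genes with at least 20 UMIs were at least 2-fold higher in members of CTRL (6.9%) and 204 were lower (1.8%). In COX2i the shares were 6.82% and 0.925%, and in COX2i + 5-AZA 7.93% and 3.13%. All 44 S phase genes and 50 of 53 G2/M genes were past that size in CTRL. Because the clusters were made on these genes, none of this is a test. C1qa stood at 8183 CPM in members and 8504 CPM in TAM_C1q of CTRL. Csf1r stood at 1191 CPM in members and 1387 CPM in TAM_C1q of CTRL, at 1324 and 1327 CPM in COX2i, and at 1042 and 1236 CPM in COX2i + 5-AZA. None of the 23 genes of macrophage growth signals was 2-fold apart from TAM_C1q in CTRL, and the median of the list was -0.28.

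The genes named next were lower in members than in TAM_C1q of each pool and lie outside the cycle lists. Vegfa, the angiogenic growth factor, stood at 69.9, 59.6 and 82.5 CPM in members of CTRL, COX2i and COX2i + 5-AZA and at 151, 139 and 232 CPM in TAM_C1q. Mxd4, a MAX partner that opposes MYC and is high in resting cells, stood at 41.8, 34.4 and 30.6 CPM against 97.5, 81.9 and 115 CPM. Further genes named by the rule were Ddit4, Fam214b, Hilpda, Naa80, Thbs1, Appl2 and Pfkfb3, with differences between -0.73 and -1.71. Outside the listed cycle genes, the 10 highest against TAM_C1q were Neil3, Pbk, Shcbp1, Rad54l, Asf1b, Prr11, Pclaf, Tcf19, Cep55 and Fignl1. Those whose role is textbook knowledge act in DNA repair, chromatin assembly or division, and the list of cycle genes had not caught them. Neil3, a DNA glycosylase, stood at 76.6, 74.7 and 52.7 CPM in members and at 3.24, 2.51 and 1.43 CPM in TAM_C1q.

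Summed over all members, H2-Ab1 stood between TAM_C1q and TAM_Spp1. It was at 590, 887 and 2017 CPM in members, at 147, 312 and 659 CPM in TAM_C1q and at 1954, 3740 and 3493 CPM in TAM_Spp1. The members nearest to TAM_C1q by genes outside the cycle lists, a match described next, stood at 238, 278 and 445 CPM. These levels were below TAM_C1q itself in COX2i and COX2i + 5-AZA. The 51 members of COX2i nearest to cDC2 stood at 11861 CPM. H2-Ab1 was among the genes that could set the match, so its levels by nearest class are a description. Over 11 class II genes the median difference was 1.81, 1.30 and 1.22 against TAM_C1q and -1.65, -1.44 and -0.41 against TAM_Spp1. Against TAM_Spp1, members were 2-fold or more higher in 14 of 19 C1q TAM genes of CTRL, where 13% of all tested genes were higher and 6.59% lower. Npl, a sialic acid lyase, and Gas6, a bridge for uptake of dying cells, differed from TAM_Spp1 by 4.61, 4.10 and 5.03 and by 4.76, 4.40 and 4.07. Slpi, a protease inhibitor, differed by -5.40, -4.08 and -3.82.

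Each member was then matched to the annotated class whose mean profile it correlated with best, over 1000 genes that excluded the cycle genes. In CTRL, 82.6% of members (80.6 to 84.5) were nearest to TAM_C1q, 13.1% to TAM_Spp1 and 3.23% to cDC2. COX2i was much the same, with 79.6% (78.2 to 81.0), 15.3% and 1.61%, and a further 3.26% nearest to the monocyte class Monocyte_1. In COX2i + 5-AZA only 51.9% (49.2 to 54.6) were nearest to TAM_C1q, while 29.0% (26.6 to 31.5) were nearest to TAM_H2Ab1, a class led by an MHC class II gene, and 6.89% to Monocyte_1. TAM_H2Ab1 had fewer than 50 cells in CTRL and COX2i and could not be a match there, and Monocyte_1, with 44 cells, could not be one in CTRL. Cells of known class that were held out returned to their own class in 92.3%, 92.2% and 89.3% of cases for TAM_C1q and in 60.3% for Monocyte_1 of COX2i + 5-AZA.

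In COX2i + 5-AZA, Mki67 differed less with the nearest class than Spp1 and H2-Ab1 did. It stood at 504 CPM in members nearest to TAM_C1q, 570 CPM in those nearest to TAM_Spp1 and 382 CPM in those nearest to TAM_H2Ab1. Spp1 itself stood at 2510 CPM, 3381 CPM and 765 CPM in these cells, the same order. The MHC class II gene H2-Ab1 stood at 445 CPM, 4028 CPM and 3260 CPM. In CTRL, Spp1 stood at 7066 CPM in members nearest to TAM_C1q and at 6015 CPM in those nearest to TAM_Spp1. Spp1 and H2-Ab1 were among the genes that could set the match, so their differences are a description.

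**Figure D3:**
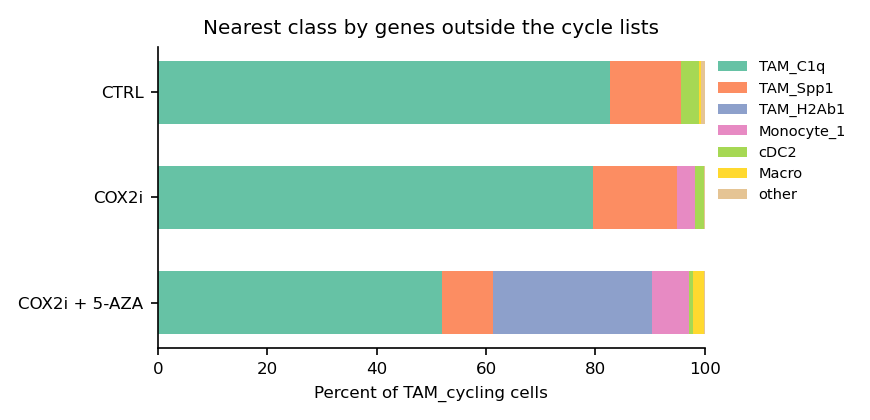
Stacked bars give the percentage of cycling macrophages whose profile without cycle genes was nearest to each annotated class, in 3 libraries. TAM_C1q holds 82.6% in CTRL, 79.6% in COX2i and 51.9% in COX2i + 5-AZA, where TAM_H2Ab1 holds 29.0%.

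Between pools, most genes of the members stayed within 2-fold, cycle genes included. For COX2i against CTRL, 184 of 11389 genes were at least 2-fold higher (1.62%) and 313 lower (2.75%). Of 391 cycle genes, 2 were higher and 2 lower (0.512% each). For COX2i + 5-AZA against CTRL, 4.4% were higher and 7.75% lower, and of 390 cycle genes 0.769% were higher and 6.67% lower. For COX2i + 5-AZA against COX2i, 4.1% were higher and 6.02% lower, and of 391 cycle genes 0.767% were higher and 3.58% lower. The comparisons share libraries, so they are set side by side and not counted as separate evidence. The median over all tested genes was 0.00 for COX2i against CTRL, -0.09 for COX2i + 5-AZA against CTRL and -0.09 against COX2i.

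No gene of the S phase, G2/M, replication fork, origin licensing, spindle, mitotic kinase or cyclin lists was 2-fold apart in any of the 3 comparisons. This too can follow from the way the members were selected. Mcm2, a subunit of the replicative helicase, stood at 302, 294 and 278 CPM in CTRL, COX2i and COX2i + 5-AZA. Pcna, the sliding clamp of the replication fork, stood at 558, 506 and 486 CPM. Ccna2, the cyclin of S phase and G2, stood at 332, 331 and 309 CPM. The 3 levels of each gene were close. The G2/M phase list had a median of 0.04 for COX2i against CTRL, -0.21 for COX2i + 5-AZA against CTRL and -0.24 against COX2i. In TAM_C1q the same list had medians of 0.32, -0.52 and -0.97, with 25 of 53 genes 2-fold lower in the last comparison, where 5.56% of all tested genes were. The difference between the classes was not tested.

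Genes that slow the cycle were not uniform. Cdkn1a, the p53-induced CDK inhibitor p21, stood at 227, 354 and 392 CPM. Mdm2, which turns p53 over and is one of its targets, stood at 76.9, 82.2 and 117 CPM. The inhibitor Cdkn2c stood at 228, 197 and 146 CPM, and Cdkn1b at 107, 111 and 75.7 CPM. Of 16 such genes, none was 2-fold higher in COX2i + 5-AZA than in CTRL. Cdkn1c and Cdkn2b were 2-fold lower, both at under 5 CPM in each pool. Dnmt1, the methyltransferase that 5-azacytidine traps, stood at 311, 322 and 261 CPM, and none of 9 DNA methylation genes was 2-fold apart in any comparison. Among 17 genes of nucleotide supply, only Samhd1, a dNTP hydrolase that interferons raise, passed that size, at 194, 311 and 640 CPM.

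The interferon-γ and type I lists had positive medians for COX2i against CTRL and for COX2i + 5-AZA against COX2i. For the type I list, given below, the first of these medians was small. Among the lists with at least 10 tested genes, the one skewed to interferon-γ had the highest median in each comparison. Cxcl9, a chemokine that recruits CXCR3+ T cells (ENSMUSG00000029417, chr5:92321347-92328079, minus strand), stood at 11.9, 63.2 and 385 CPM, which is a log2 ratio to CTRL of 2.40 (2.19 to 2.63) in COX2i and 5.01 (4.80 to 5.23) in COX2i + 5-AZA. Cxcl10, a chemokine of the same receptor (ENSMUSG00000034855, chr5:92346638-92348889, minus strand), stood at 17.97, 93.9 and 680 CPM. The guanylate-binding protein gene Gbp2 stood at 44.8, 214 and 861 CPM and the GTPase gene Iigp1 at 5.27, 38.7 and 213 CPM. Each gene was lowest in CTRL and highest in COX2i + 5-AZA. Irf1, a transcription factor that interferon-γ raises, stood at 86.5, 182 and 571 CPM. Cd274, the ligand PD-L1, stood at 10.2, 20.9 and 142 CPM.

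Of 20 tested genes of the list skewed to interferon-γ, 16 were 2-fold higher in COX2i than in CTRL, with a median of 1.69. All 20 were higher in COX2i + 5-AZA than in CTRL, with a median of 4.15. Against COX2i, 19 were higher in COX2i + 5-AZA, with a median of 2.38. None was 2-fold lower. Over all tested genes, 1.62%, 4.4% and 4.1% were higher in these comparisons. In TAM_C1q the medians were 0.88, 3.22 and 1.88, and in TAM_Spp1 1.13, 2.70 and 1.16.

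The list skewed to type I interferon set the pools apart in another way. Of 17 genes, 1 was 2-fold higher in COX2i than in CTRL (Usp18, which dampens the type I receptor), with a median of 0.47. In COX2i + 5-AZA, 16 were higher than in CTRL, with a median of 2.25, and 15 were higher than in COX2i, with a median of 1.77. The shares over all tested genes were 1.62%, 4.4% and 4.1% in these comparisons. Isg15, a ubiquitin-like protein, stood at 46.7, 79.1 and 327 CPM. Irf7, which amplifies the type I response, stood at 41.8, 58.1 and 250 CPM. Ifit3, an RNA-sensing effector (chr19:34583531-34588731, plus strand), stood at 13.4, 14.0 and 63.7 CPM. COX2i lay close to CTRL for Ifit3. For COX2i + 5-AZA against CTRL, the median of this list was 0.78 in TAM_C1q and 0.21 in TAM_Spp1, with 7 of 17 genes higher against 3.73% of all tested genes, and 3 of 16 against 2.88%. The differences between classes were not tested.

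Most antigen presentation genes were 2-fold higher in COX2i + 5-AZA than in CTRL. Of 11 MHC class II genes, 1 was higher in COX2i than in CTRL (Ciita, the class II transactivator, at 11.5, 30.4 and 84.0 CPM in CTRL, COX2i and COX2i + 5-AZA), and 8 were higher in COX2i + 5-AZA. Cd74, the invariant chain, stood at 1840, 2697 and 6041 CPM. Of 14 MHC class I genes, none was higher in COX2i and 10 were higher in COX2i + 5-AZA than in CTRL. Of all tested genes, 1.62% were higher in COX2i and 4.4% in COX2i + 5-AZA. B2m, the light chain of class I, stood at 768, 877 and 1570.4 CPM.

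The makeup of the members moved with these values. In COX2i + 5-AZA, Cxcl9 stood at 108 CPM in members nearest to TAM_C1q, 826 CPM in those nearest to TAM_H2Ab1 and 1225 CPM in those nearest to Monocyte_1. In COX2i it stood at 24.3 CPM in members nearest to TAM_C1q and at 1151 CPM in the 103 nearest to Monocyte_1, and in CTRL at 3.92 CPM in those nearest to TAM_C1q. Among members nearest to TAM_C1q alone, an alternative chosen after seeing the data, the median of the interferon-γ list was 1.47 for COX2i against CTRL, 3.36 for COX2i + 5-AZA against CTRL and 1.63 against COX2i. The type I list then had medians of 0.26, 1.15 and 1.03, and MHC class II 0.27, 0.94 and 0.60. The medians of these 3 lists stayed positive in each comparison, at smaller sizes. The filter was not alike in the pools, since TAM_H2Ab1 could be a match in COX2i + 5-AZA alone and Monocyte_1 could not in CTRL. It took 383 members nearest to TAM_H2Ab1 out of COX2i + 5-AZA only. Genes such as H2-Ab1 could also set the match, and what part of the smaller sizes came from the filter was not tested. Single genes could go another way, with Cxcl9 at 2.64 and Ifit3 at -0.24 for COX2i against CTRL. In these cells Ifit3 and H2-Ab1 were no longer 2-fold apart between COX2i + 5-AZA and CTRL, at 0.84 and 0.90. There 4 of 11 MHC class II genes and 6 of 14 MHC class I genes were 2-fold higher in COX2i + 5-AZA than in CTRL, as were 3.23% of all genes tested in these cells, and the class I median was 0.83.

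After thinning, Cxcl9 had a UMI in 0.622% of members of CTRL, 2.93% in COX2i and 21.1% (19.0 to 23.4) in COX2i + 5-AZA. Neutrophils of COX2i + 5-AZA gave 14.6% (9.36 to 21.2), at a median of 2627 UMIs per cell before thinning against 13011 in members. The intervals of members and neutrophils overlap. In the same pool TAM_C1q gave 8.81% (7.34 to 10.5) and TAM_Spp1 9.34% (7.44 to 11.5), at medians of 9345 and 5417 UMIs, and their intervals lie below that of the members. Mmp13 gave 33.8% of members (31.3 to 36.5) against 11.3% of neutrophils (6.70 to 17.4) in COX2i + 5-AZA, and there the intervals do not overlap.

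Markers of other cells were checked across the members. The summed level of monocyte markers was 375 CPM in CTRL, 611 CPM in COX2i and 570 CPM in COX2i + 5-AZA. One of them, Plac8, which interferons can also raise, stood at 9.46, 46.2 and 258 CPM. Summed NK and T cell markers, 13 genes, were at 0.190, 3.57 and 13.3 CPM, and the T cell genes Cd3d, Cd3g and Cd8a had no UMI in members of these 3 libraries. Dendritic cell markers summed to 18.7, 27.3 and 21.9 CPM, neutrophil markers to 89.1, 31.9 and 115 CPM, and mast cell markers to 9.08, 4.14 and 7.47 CPM. Summed markers of macrophage identity stood at 58226, 37955 and 38008 CPM, and Apoe was the gene of that list that was 2-fold lower. The part of monocyte RNA in the interferon values was not tested.

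**Figure D4:**
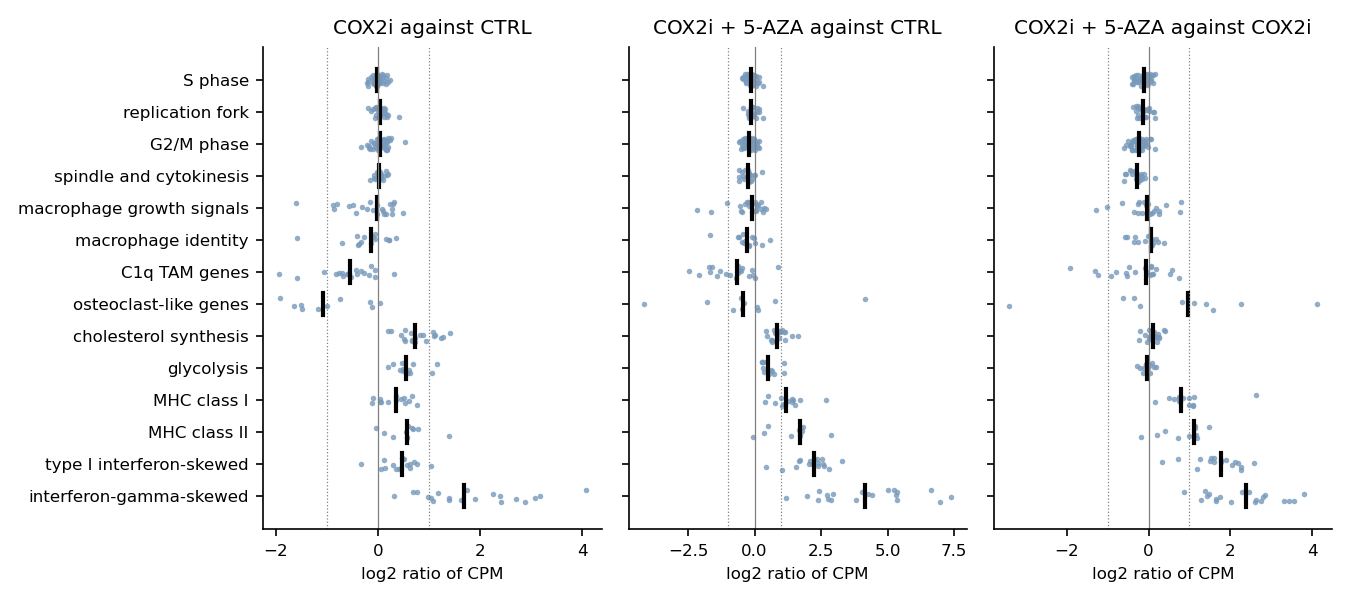
For 14 gene lists and 3 comparisons between libraries, each dot is the log2 ratio of CPM of a gene with at least 20 UMIs in cycling macrophages, each bar the median of its list, and dotted lines mark 2-fold. Cycle lists lie around 0 inside the lines, and the interferon-γ list has medians of 1.69, 4.15 and 2.38.

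Several C1q TAM genes were lower in the treated pools, Apoe among them. Apoe (ENSMUSG00000002985, chr7:19696109-19699188, minus strand) stood at 23764 CPM in CTRL, 7917 CPM in COX2i and 7503 CPM in COX2i + 5-AZA, a log2 ratio of -1.59 (-1.59 to -1.58) in COX2i. C1qa was less than 2-fold apart, at 8183, 6507 and 7018 CPM. Pf4, a chemokine of resident-like macrophages, stood at 1532, 736 and 1057 CPM. Of 20 C1q TAM genes, 3 were 2-fold lower in COX2i and 8 in COX2i + 5-AZA than in CTRL, and none was higher. Over all tested genes, 2.75% and 7.75% were lower in these comparisons. Among members nearest to TAM_C1q, Apoe differed from CTRL by -1.58 in COX2i and -1.40 in COX2i + 5-AZA. In these cells 3 of 19 C1q TAM genes were 2-fold lower in COX2i and 5 in COX2i + 5-AZA, as were 2.58% and 6.58% of all genes.

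Some genes were low in COX2i alone. Vcam1, an adhesion molecule, stood at 85.3 CPM in CTRL, 9.60 CPM in COX2i and 99.6 CPM in COX2i + 5-AZA. Ctsk, a collagenolytic cathepsin of osteoclasts, stood at 55.3, 14.7 and 38.8 CPM and Acp5, the acid phosphatase of osteoclasts, at 113, 39.7 and 190 CPM. Of 10 osteoclast-like genes, 5 were 2-fold lower in COX2i than in CTRL, and 5 were higher in COX2i + 5-AZA than in COX2i. The matching shares over all tested genes were 2.75% and 4.1%. For Ctsk, COX2i + 5-AZA differed from COX2i by 1.40, and by 0.72 without cells of more than 2 times the median UMIs. Others were low in both treated pools. Ctla2a, a cysteine protease inhibitor, stood at 246, 45.6 and 47.9 CPM. Lyve1, the hyaluronan receptor of resident macrophages, stood at 109, 31.7 and 14.6 CPM. Igf1, a growth factor that macrophages secrete, stood at 27.3, 8.98 and 8.69 CPM.

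COX2i + 5-AZA also had genes of its own that were far above both other pools. Mmp13, a collagenase (ENSMUSG00000050578, chr9:7272514-7283331, plus strand), stood at 11.1, 8.58 and 534 CPM. Mmp12, the macrophage elastase, stood at 28.4, 44.7 and 492 CPM. Dnase1l3, a secreted nuclease that cuts chromatin of dying cells, stood at 1.14, 4.50 and 194 CPM. Tlr12, a receptor for microbial profilin, stood at 2.86, 4.90 and 73.7 CPM, and Ocstamp, which takes part in fusion of macrophages, at 3.81, 3.91 and 67.6 CPM. In TAM_C1q, COX2i + 5-AZA differed from COX2i by 5.47 for Mmp13 and 4.57 for Dnase1l3, so the high levels were not seen in members only. Among members nearest to TAM_C1q, COX2i + 5-AZA differed from CTRL by 5.37 for Mmp13 and by 4.44 for Dnase1l3, and the latter stood at 7.40 over all members.

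The gene with the highest ratio rested on few cells. Retnla, a secreted product of alternatively activated macrophages, had 1 UMI in CTRL and stood at 114 CPM in COX2i + 5-AZA, a log2 ratio of 10.81 (8.33 to 16.11). Only 1.52% of the members of that pool held a UMI of it, and 0.684% did after thinning. Among members nearest to TAM_C1q it stood at 16.3 CPM.

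Other genes were lowest in COX2i + 5-AZA. Fn1, fibronectin, stood at 4614, 6342 and 1179 CPM. Spp1, osteopontin, stood at 6807, 6155 and 1917 CPM. S100a4, a calcium-binding protein of motile cells, stood at 1286, 1744 and 502 CPM, and Itga6, a laminin receptor chain, at 375, 352 and 102 CPM. Mgp, the matrix Gla protein, stood at 79.0, 47.2 and 4.43 CPM. Each of these genes was at least 2-fold lower than in CTRL. Fibroblast transcripts moved in the same direction. Col1a2, a collagen that macrophages are not known to make in quantity, stood at 94.7, 174 and 49.7 CPM in members, at 130, 155 and 22.2 CPM in neutrophils and at 4772, 9669 and 6197 CPM in the non-immune class Myofibrobl. In members, the melanoma and stroma markers summed to 321, 378 and 176 CPM. After thinning, Mgp had a UMI in 14.3% of members (12.5 to 16.2) and 24.0% of neutrophils (13.1 to 38.2) in CTRL. In COX2i + 5-AZA the shares were 0.989% and 0.662%. Fn1 had a UMI in 92.9% of members and 84.0% of neutrophils in CTRL, and in 55.9% and 23.8% in COX2i + 5-AZA. The part of free RNA in Fn1 and Mgp was not tested.

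**Figure D5:**
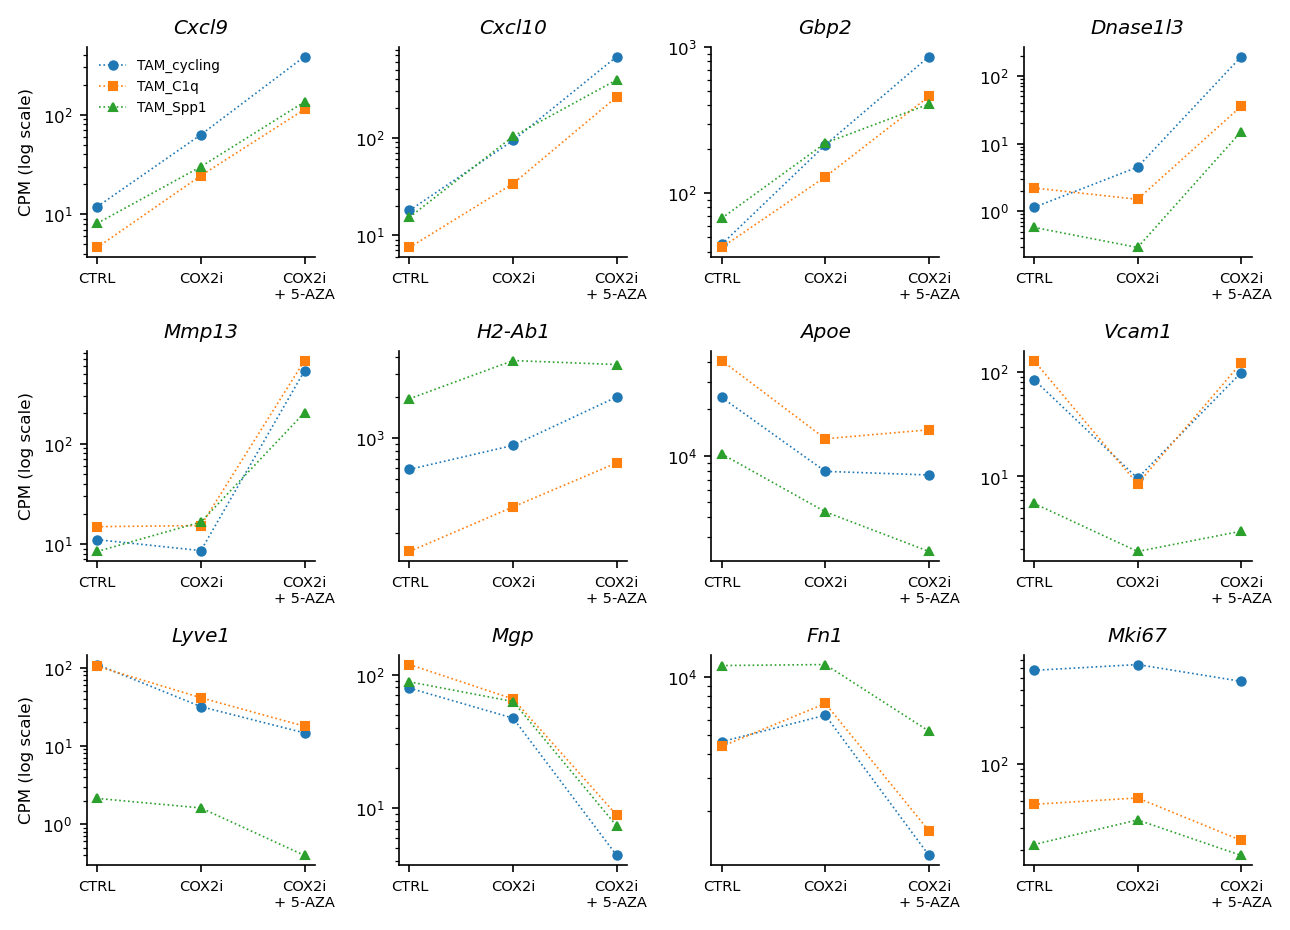
Points give the level (CPM, log axis) of 12 genes in cycling macrophages, TAM_C1q and TAM_Spp1 of 3 libraries, with no error bars and with dotted lines that only join the points of a class. In cycling macrophages Mki67 stays between 466 and 638 CPM, while Cxcl9 runs from 11.9 to 385 CPM, Apoe is lower in both treated libraries, Vcam1 is low in COX2i alone and Mmp13 is high in COX2i + 5-AZA alone.

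Of 20 genes of cholesterol synthesis and uptake, 6 were 2-fold higher in COX2i and 6 in COX2i + 5-AZA than in CTRL. The medians of the list were 0.73 and 0.85, and none of its genes was apart between the treated pools. Of all tested genes, 1.62% were higher in COX2i and 4.4% in COX2i + 5-AZA than in CTRL. Fdps, which makes farnesyl diphosphate, stood at 51.3, 137 and 160 CPM, and Sqle, the squalene epoxidase, at 28.6, 67.4 and 63.2 CPM. Slc2a1, the glucose transporter GLUT1, stood at 95.7, 214 and 204 CPM. Of 12 glycolysis genes, 2 were 2-fold higher in each treated pool than in CTRL. In TAM_C1q the medians for cholesterol synthesis were 0.71 and 0.87. Lpl, lipoprotein lipase, stood at 14.5, 50.4 and 156 CPM and the lipid droplet protein gene Plin2 at 514, 191 and 349 CPM. Asns, the asparagine synthetase, was high in COX2i alone, at 26.5, 74.3 and 24.5 CPM.

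Growth receptors of the members varied little. Of 23 growth signal genes, none was 2-fold higher in any comparison, and Igf1, Il34, Cebpa and Klf2 were the ones that were lower in at least 1 of them. Cebpa, a myeloid transcription factor, stood at 317, 183 and 156 CPM. Csf2rb, the shared chain of the GM-CSF receptor, stood at 158, 157 and 187 CPM.

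COX2, the target of celecoxib, and other genes of the prostaglandin pathway were also read in the members. Ptgs2, which encodes COX2, stood at 104 CPM in CTRL, 84.2 CPM in COX2i and 217 CPM in COX2i + 5-AZA. The EP4 receptor gene Ptger4 stood at 29.7, 37.2 and 33.6 CPM, and the EP2 receptor gene Ptger2 at 35.9, 35.6 and 17.9 CPM. Hpgd, which breaks down prostaglandins, stood at 12.3, 18.8 and 3.05 CPM. Of 12 tested genes of prostaglandin synthesis, reception and breakdown, none was 2-fold apart in COX2i against CTRL. In COX2i + 5-AZA, 1 was higher and 3 were lower against CTRL, where 4.4% and 7.75% of all tested genes were. Against COX2i, 1 was higher and 1 lower, where 4.1% and 6.02% of all tested genes were.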

How the data were processed

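CD45+ cells of 4 tumour pools were profiled on the Chromium Flex platform. It reads ligated probes that lie on a short stretch of each transcript, and the rest of the transcript is not read. Per the paper's methods, the authors ran Cell Ranger 7.1.0 with the mouse probe set (mm10), removed cells of low gene number or high mitochondrial share, left out ribosomal and mitochondrial genes and rarely seen genes, integrated the libraries, clustered the cells and named the clusters. The deposited table holds raw UMI counts of 12584 genes in 34447 cells, and a second table gives each cell's library and class. All values here were computed from those counts. The integration shaped the class names only.

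Cells were grouped by library as the labels name it. Counts of a class were summed per library and scaled to CPM. A log2 ratio was computed without a pseudocount for genes with at least 20 UMIs over the pair, with an exact 95% interval, and 2-fold was the size at which a difference was counted. A count of 0 was set to 3 UMIs, which is 0.190 CPM in CTRL, 0.0850 CPM in COX2i and 0.166 CPM in COX2i + 5-AZA. PCR and pooling error are outside the intervals. Shares of cells with a UMI used cells thinned to 2000 UMIs. The genes named in a comparison were the 10 with the highest and the 10 with the lowest ratio among those with at least 200 UMIs over the pair and 50 CPM in the higher pool, with and without cycle genes, and the members of 34 gene lists. Aspm, Msh6 and Zmynd19 fell outside this rule and were chosen after their values were seen. Some genes named by the rule are not reported here. The class, the lists and the rule were chosen with earlier results of these data known. No doublets were called, and an alternative left out members with more than 2 times the class's median UMIs. Genes with near-identical relatives, such as Gbp2, H2 genes and Ifit3, can share probes, so their split among relatives is uncertain. Promoter windows came from RefSeq (GRCm38.p6) and gene positions from GENCODE on the same assembly.

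Python 3.11.15 was used with numpy 2.4.6, scipy 1.17.1, pandas 2.3.3 and matplotlib 3.10.9. The ratio step was tested on simulated data. Alternatives covered the denominator of shares, the gene minimum, the scaling, the weighting of cells and phases, deep cells and cells with few genes. Cells in shared droplets and cells nearest to TAM_C1q were treated as alternatives chosen after seeing the data.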

Additional observations from a re-analysis of the deposited data

Results flagged for a closer look

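A pair of genes differed between the pools in opposite directions in cycling macrophages and in another macrophage class, each by at least 2-fold. Chil3, a chitinase-like protein of monocytes and alternatively activated macrophages, was higher in COX2i + 5-AZA than in CTRL in the cycling class, by 1.61 on the log2 scale (31.6 CPM in CTRL and 96.6 CPM in COX2i + 5-AZA). In TAM_Spp1 the same difference was -1.02, at 1449 and 715 CPM. Ctsk was higher in COX2i + 5-AZA than in COX2i in the cycling class, by 1.40 (14.7 and 38.8 CPM), a difference that was under 2-fold as a mean over cells (0.89) and without cells of more than 2 times the median UMIs (0.72). In TAM_C1q it differed by -1.41, at 21.2 and 8.004 CPM. With 1 pool per group, neither difference between the classes was tested.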

How the results depend on the processing

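No paired analysis was possible because each group had 1 library. With macrophages as the denominator, the ratio of the class's shares was 2.38 for COX2i against CTRL, 1.64 for COX2i + 5-AZA against CTRL (0.809 over all cells, so the direction turned), 0.691 for COX2i + 5-AZA against COX2i and 0.234 for IRF3/7 against CTRL. The turn comes with the denominator, since macrophages were a smaller part of COX2i + 5-AZA cells. With cells above 2000 genes alone, these ratios were 1.99, 0.880, 0.442 and 0.0559. By the rule of 3 markers, the last 3 were 0.649, 0.308 and 0.0578. Over monocytes and macrophages COX2i + 5-AZA stood at 0.350 times COX2i.

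The S phase list's share of UMIs was 0.611% in CTRL and 0.610% in COX2i as a mean of cells. Without cells of more than 2 times the median UMIs it was 0.618% in CTRL, 0.614% in COX2i and 0.563% in COX2i + 5-AZA. Without cells in shared droplets it was 0.599% in CTRL and 0.567% in COX2i + 5-AZA, and in cells nearest to TAM_C1q 0.530% in COX2i + 5-AZA. For CTRL, COX2i and COX2i + 5-AZA, the G2/M share was 0.805%, 0.837% and 0.723% as a mean of cells, 0.828%, 0.862% and 0.732% without the deep cells, and 0.807%, 0.859% and 0.784% in cells nearest to TAM_C1q. Without shared droplets it was 0.804% in CTRL and 0.750% in COX2i + 5-AZA. COX2i + 5-AZA stayed lowest in each of these.

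Counts past 2-fold followed the minimum, and the share of tested genes past 2-fold moved too, so the number tested was not the only part. For COX2i against CTRL, 2.75% of 11389 genes were lower in the main setting. The share was 0.926% of 9714 genes at 200 UMIs and 5.92% of 12409 genes with no minimum. The share of higher genes was 1.62% in the main setting and 0.957% at 200 UMIs. Most of the 313 genes lower in the main setting thus held fewer than 200 UMIs over the pair. At 200 UMIs, COX2i against CTRL gave 93 higher and 90 lower, COX2i + 5-AZA against CTRL 269 lower, and COX2i + 5-AZA against COX2i 279 higher and 261 lower. With no minimum, COX2i against CTRL gave 735 lower and COX2i + 5-AZA against COX2i 792 higher. Of the 27 genes and 9 lists followed, no ratio past 2-fold changed direction. Among the gene ratios, 72 of 567 planned values and 75 of 162 added ones moved by more than the counting interval. With 1 pool per group, the spread between tumours is unknown.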

Other observations

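The 20 IRF3/7 cells with the name TAM_cycling held enough UMIs for abundant genes. Irf7 stood at 1788 CPM (1582 to 2013) and Isg15 at 1637 CPM (1440 to 1853). Cxcl10 stood at 242 CPM (171 to 334) and Cxcl9 at 39.3 CPM (14.4 to 85.5). The type I genes Irf7 and Isg15 were above their levels in the other 3 pools, and Cxcl9 and Cxcl10 were below those of COX2i + 5-AZA. The vectors sat in the cancer cells, and what part of the Irf7 UMIs came from them was not tested.

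Of 19 genes of mitochondrial respiration, none was 2-fold apart in any comparison of the members, and the medians were 0.17 for COX2i against CTRL, 0.17 for COX2i + 5-AZA against CTRL and 0.02 against COX2i. Of 15 genes of ribosome biogenesis none was 2-fold apart either, with medians of 0.35, 0.48 and 0.14.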
